A study of Mus musculus with 8 samples.

Results

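The transcripts described here are those of 10 genes that carry glucose into the cell, control the flow through glycolysis and carry lactate out. They are the glucose transporters Slc2a1 and Slc2a3, the hexokinases Hk1 and Hk2, the phosphofructokinases Pfkl and Pfkp, the pyruvate kinase Pkm, the lactate dehydrogenase Ldha, and the lactate transporters Slc16a1 and Slc16a3. All 10 were found by symbol among the 41730 gene rows of the count table, and all 10 passed the filter on low counts, which left 10037 genes for testing. The set was chosen by function around Slc2a3, which was already known to be lower after treatment in these same libraries, and the question was whether other steps of the pathway moved with it. The values of Slc2a3 in this comparison are therefore a description, and whether it was called is given as a count from which nothing is read.

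Naive CD8+ T cells of the mouse were kept for 24 h in 2 µM RGX-104 or in the solvent DMSO. RGX-104 is a small molecule that activates LXR, the nuclear receptors that sense oxysterols. Each group held 4 libraries, RGX-104 replicates 5 to 8 and DMSO replicates 1 to 4. The cells were isolated with a magnetic kit for naive CD8+ cells, and no strain, age, genotype or number of animals is given in the labels. Whether replicates are different mice or different wells is not stated, so a p-value here measures the scatter of these libraries alone, and that scatter may be technical.

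Glucose enters T cells through facilitative transporters of the SLC2A family and is trapped in the cell by hexokinase. Phosphofructokinase commits the sugar to glycolysis, pyruvate kinase makes pyruvate, and lactate dehydrogenase turns pyruvate into lactate, which leaves with a proton through monocarboxylate transporters of the SLC16A family. Naive T cells are known to be quiescent and to depend largely on mitochondrial oxidation, whereas activated T cells take up far more glucose and release lactate.

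Counts were made from reads near the 3' end of transcripts, so a transcript gives about the same number of reads whatever its length. Levels are given in CPM (counts of the gene scaled to a common library size), which here need no length term between genes. Priming and the assignment of reads can still differ between genes and were not corrected, so levels and shares between genes hold only for the counts as deposited. Pgk1 and Eno1, glycolytic enzymes that most cells express, were at 9.28 and 13.4 CPM in RGX-104 and at 14.8 and 11.2 CPM in DMSO. Library totals lay between 16196217 and 28287445 counts. The number of genes with a count was 10442 to 10990 in RGX-104, 9772 to 10194 in DMSO replicates 1 to 3 and 10908 in DMSO replicate 4. The markers of the labelled cell type were present. Cd8a lay between 722 and 773 CPM in RGX-104 and between 627 and 703 CPM in DMSO, with no overlap between the groups (edgeR adjusted p = 1.00). Ccr7, a homing receptor of naive T cells, lay between 697 and 919 CPM in RGX-104 and between 540.2 and 881 CPM in DMSO. Lef1, which encodes a DNA-binding protein that marks naive T cells, lay between 204 and 264 CPM in RGX-104 and between 338 and 369 CPM in DMSO, with no overlap (edgeR adjusted p = 0.348, DESeq2 adjusted p = 0.000248). Itgax, Xcr1 and Ncr1, markers of dendritic and natural killer cells, had no count in any library. Other markers listed for these cells had counts in some libraries. Summed per library, dendritic cell markers reached at most 3.52 CPM in RGX-104 and 5.09 CPM in DMSO, and natural killer markers 0.713 and 0 CPM. Macrophage and monocyte markers reached 17.9 CPM in RGX-104 and 30.9 CPM in DMSO. Neutrophil markers reached 11.5 and 34.7 CPM, erythroid markers 14.3 and 38.8 CPM, and B cell markers 57.5 and 75.2 CPM, in the same order. Cd79a, a part of the B cell receptor, lay between 0 and 15.3 CPM in RGX-104 and between 0.161 and 25.1 CPM in DMSO. In bulk RNA, fewer cells with a transcript and less of it per cell cannot be told apart.

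Slc2a3, the high-affinity glucose transporter GLUT3, was lower in the treated cells. It was measured at 60.6, 41.6, 73.5 and 50.2 CPM in the RGX-104 libraries, replicates 5 to 8, and at 129, 137, 81.0 and 90.3 CPM in the DMSO libraries, replicates 1 to 4. Every RGX-104 library lay below every DMSO library, with the highest RGX-104 library at 73.5 CPM and the lowest DMSO library at 81.0 CPM. The mean was 56.5 ± 13.8 CPM in RGX-104 and 109 ± 27.8 CPM in DMSO (SD, n = 4 each), a ratio of 0.517. The fitted log2 fold change was -0.97 ± 0.26 (SE), RGX-104 over DMSO. Over all genes tested, the RGX-104 libraries lay wholly below the DMSO libraries in 1.35% of genes and wholly above them in 2.20%.

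Slc2a1 encodes GLUT1, the transporter that activated T cells are known to raise. It was measured at 63.5, 23.1, 27.1 and 30.5 CPM in RGX-104 and at 50.9, 55.4, 10.9 and 33.7 CPM in DMSO. The groups overlapped fully, with the highest library in RGX-104 (replicate 5) and the lowest in DMSO (replicate 3). The log2 fold change was -0.08 ± 0.48 (SE, edgeR quasi-likelihood test, adjusted p = 1.00), with a 95% interval of -1.10 to 0.93, which leaves sizeable changes of either sign within the error.

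The transcripts of both transporters together summed to 124, 64.7, 101 and 80.8 CPM in RGX-104 and to 179, 193, 91.9 and 124 CPM in DMSO. These sums overlapped between the groups: Slc2a1 was high in RGX-104 replicate 5 and low in DMSO replicate 3. Slc2a3 made up 48.8%, 64.3%, 73.1% and 62.2% of the pair in RGX-104 and 71.7%, 71.2%, 88.2% and 72.8% in DMSO. It was the more abundant of the pair in every library but RGX-104 replicate 5, where Slc2a1 was slightly higher.

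**Figure D1:**
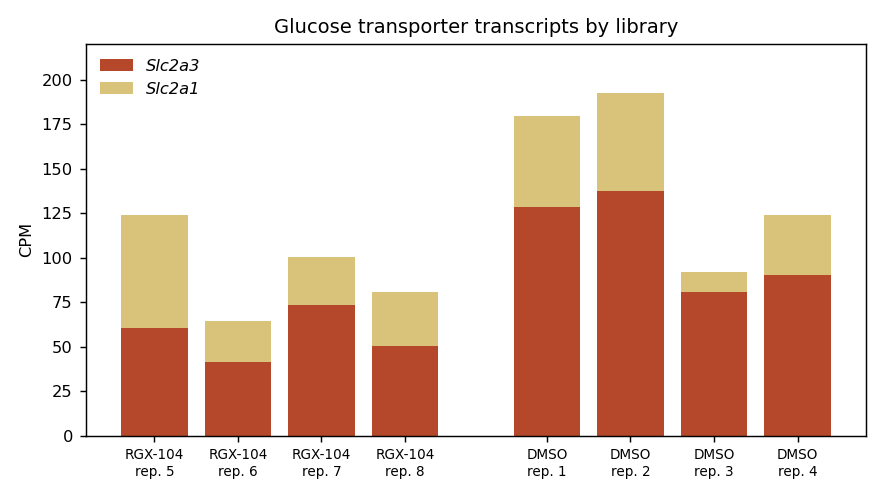
Transcript level of Slc2a3 (lower part of each bar) and Slc2a1 (upper part) in CPM, in the 4 RGX-104 libraries and the 4 DMSO libraries. The Slc2a3 part is shorter in each RGX-104 library (41.6 to 73.5 CPM) than in each DMSO library (81.0 to 137 CPM), while the Slc2a1 part varies within both groups.

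Hexokinase transcripts came almost wholly from Hk1, the form expressed in most tissues. Hk1 was measured at 178, 159, 156 and 212 CPM in RGX-104 and at 116, 131, 202 and 160 CPM in DMSO. The groups overlapped, and the log2 fold change was 0.20 ± 0.20 (SE, edgeR adjusted p = 1.00; 95% interval -0.21 to 0.61). Hk2, the insulin-regulated form that activated T cells are known to induce, was at 4.88, 0, 0 and 4.75 CPM in RGX-104 and at 4.83, 0, 0 and 4.35 CPM in DMSO. It thus had no count in 2 libraries of each group and about the same level in the other 2. Its 95% interval ran from -5.31 to 5.39 on the log2 scale, so no statement on its change is made. Among the 1547 genes with a mean of 2 to 6 CPM, 25.6% to 36.4% had no count in an RGX-104 library. The share was 42.4% to 46.9% in DMSO replicates 1 to 3 and 28.7% in DMSO replicate 4. Counts of 0 were thus common at this level. Their share went largely with the group, so detection and treatment cannot be fully told apart. Hk1 made up between 96.0% and all of the hexokinase pair in the 8 libraries.

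Phosphofructokinase transcripts came from both genes, with Pfkp, the platelet form, above Pfkl, the liver form, in all 8 libraries. Pfkp was measured at 80.6, 72.3, 68.8 and 75.1 CPM in RGX-104 and at 122, 63.6, 75.4 and 100 CPM in DMSO. The RGX-104 values lay close together inside the wider range of the DMSO values (SD 4.98 CPM in RGX-104 and 26.0 CPM in DMSO), and the log2 fold change was -0.30 ± 0.25 (SE, edgeR adjusted p = 1.00). The last 300 bases of a Pfkp transcript are also part of Pitrm1, a peptidase gene on the opposite strand. Pitrm1 was at 24.8 CPM on average in RGX-104 and at 34.1 CPM in DMSO, and since the strand setting of the counting is not given, reads of this overlap may have been counted for either gene. Pfkl was measured at 35.7, 70.9, 39.5 and 64.7 CPM in RGX-104 and at 78.5, 20.5, 58.6 and 58.7 CPM in DMSO. The spread within each group exceeded the difference between the means, 52.7 CPM in RGX-104 and 54.1 CPM in DMSO.

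Pkm, which encodes the pyruvate kinase of T cells, was the highest member and the one whose change was bounded most tightly. It was measured at 313, 324, 331 and 265 CPM in RGX-104 and at 285, 250, 309 and 371 CPM in DMSO. The log2 fold change was 0.002 ± 0.15 (SE, edgeR adjusted p = 1.00), with a 95% interval of -0.32 to 0.32. Counts near the 3' end cannot separate the M1 and M2 splice forms of Pkm.

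Ldha, the lactate dehydrogenase subunit that favours lactate production, was measured at 180, 186, 142 and 186 CPM in RGX-104 and at 273, 151, 127 and 225 CPM in DMSO. The RGX-104 libraries lay within the range of the DMSO libraries, and the log2 fold change was -0.18 ± 0.22 (SE, edgeR adjusted p = 1.00; 95% interval -0.64 to 0.28). Ldhb, the subunit that favours the reverse reaction, was low, and Ldha made up 85.9% to 99.8% of the pair over the 8 libraries. Ldha has 6 and Pkm 2 annotated processed pseudogenes that match at least 100 of the last 300 transcript bases at 95% identity or more. Reads shared with those copies, which were not used here, may have been dropped or moved, so both levels are uncertain to that extent. No such copy was found for Slc2a1, Slc2a3, Hk1, Hk2, Pfkl, Slc16a1 or Slc16a3.

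Of the lactate transporters, Slc16a1 (MCT1) was measured at 46.6, 22.1, 27.04 and 30.7 CPM in RGX-104 and at 29.7, 20.5, 10.8 and 13.4 CPM in DMSO. RGX-104 replicate 5 was the highest library, and the groups overlapped through DMSO replicate 1. The means were 31.6 ± 10.6 CPM in RGX-104 and 18.6 ± 8.45 CPM in DMSO (SD, n = 4 each). The log2 fold change of 0.75 ± 0.50 (SE) did not pass (edgeR adjusted p = 1.00; 95% interval -0.31 to 1.81), and without RGX-104 replicate 5 it was 0.49. It was 1.17 with a covariate for how many genes a library detected and 1.20 with DMSO replicate 4 as the sole control, a setting chosen after the data were seen. Slc16a3 (MCT4), the lactate exporter of strongly glycolytic cells, was at 0, 1.27, 4.14 and 0 CPM in RGX-104 and at 10.4, 0.108, 6.65 and 3.56 CPM in DMSO. Its counts differed widely within a group, from 0 to 67 in RGX-104 and from 2 to 202 in DMSO. The log2 fold change was -1.95 ± 2.26 (SE, edgeR adjusted p = 1.00). Without RGX-104 replicate 7, the RGX-104 library with the most counts (67), it was -3.61.

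**Figure D2:**
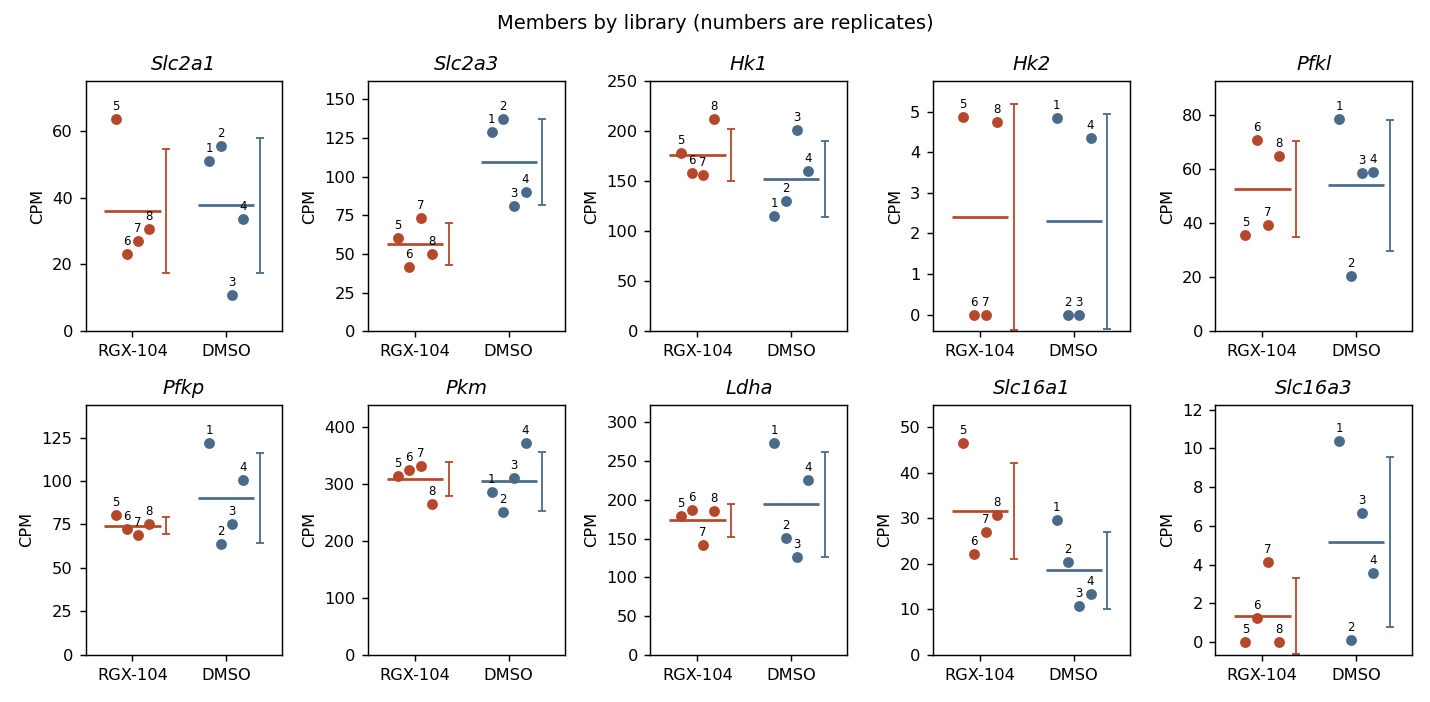
Level in CPM of each of the 10 members in every library, with RGX-104 left and DMSO right in each panel; points carry the replicate number, horizontal lines are group means and bars are the SD over 4 libraries. Slc2a3 is the member whose groups do not overlap, and the other 9 overlap.

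None of the 9 members beside Slc2a3 was called, and in none of them were the groups separate. Of all tested genes, the RGX-104 libraries lay wholly below the DMSO libraries in 1.35% and wholly above in 2.20%. At shares this small, none among 9 genes does not show whether other steps moved. At an adjusted p under 0.05, edgeR called 0 of the 10 members, with 0.110% of all tested genes called in either direction and 0.00996% called lower. DESeq2 called 1 of the 10, Slc2a3, with 0.329% of all tested genes called and 0.130% called lower. Since Slc2a3 was chosen for its lower level, nothing is read from these counts. With edgeR and no adjustment, 1 member had a p under 0.05, again Slc2a3, against 3.81% of all tested genes. Of the 10 fitted log2 fold changes 4 were above 0 and 6 below, with a median of -0.07, and the median of all tested genes was 0.01. The signs of Slc2a1, Hk2, Pfkl, Pkm and Ldha changed under some of the alternative settings, so no direction is given for them.

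**Figure D3:**
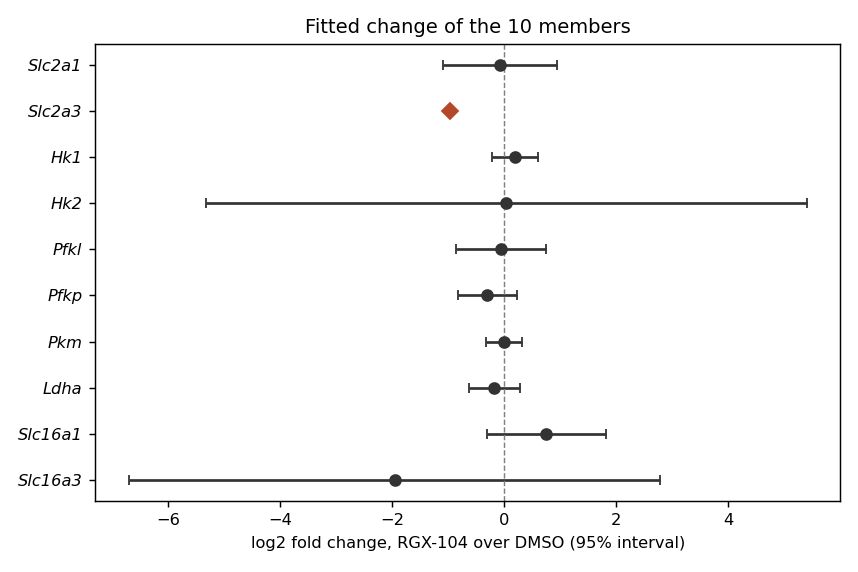
Fitted log2 fold change of each member, RGX-104 over DMSO, with its 95% interval. The diamond marks Slc2a3 at -0.97, drawn without an interval because it was chosen for its lower level; the intervals of the other 9 members include 0, and those of Hk2 and Slc16a3 are the widest.

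The levels of the members were also set against each other within each library. From high to low, the means over the 8 libraries were 306 CPM for Pkm, 184 for Ldha, 164 for Hk1, 82.9 for Slc2a3, 82.3 for Pfkp, 53.4 for Pfkl, 36.9 for Slc2a1, 25.1 for Slc16a1, 3.26 for Slc16a3 and 2.35 for Hk2. Neighbours in this order were compared within libraries on the log2(CPM + 1) scale by a two-sided exact sign-flip permutation test, adjusted over the 9 pairs, with n = 8. Pkm lay above Ldha in all 8 libraries, by 0.76 ± 0.38 (SD; exact p = 0.00781, the smallest that 8 libraries allow, adjusted p = 0.0234). The same held for Pfkp above Pfkl, by 0.69 ± 0.51, and for Slc16a1 above Slc16a3, by 3.04 ± 1.79, with the same exact and adjusted p. The other 6 neighbour pairs did not pass after adjustment, with Slc2a1 above Slc16a1 in 7 libraries (exact p = 0.0234, adjusted p = 0.0527). The pairs with Slc2a3 rest on values that chose the set. They were among the 9 pairs adjusted over, and nothing is read from their p-values. The order itself was taken from the mean levels of these same 8 libraries, so which genes were neighbours was set by the values compared. Hk1 lay above Slc2a3 in 4 RGX-104 libraries and in 2 DMSO libraries, and Slc2a3 lay above Pfkp in 1 RGX-104 library and in 3 DMSO libraries.

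The members also differed in which libraries were high. RGX-104 replicate 5 was the highest and DMSO replicate 3 the lowest of the 8 libraries for both Slc2a1 and Slc16a1. DMSO replicate 1 was highest for Pfkl, Pfkp, Ldha and Slc16a3, and DMSO replicate 2 for Slc2a3. In Hk1, by contrast, DMSO replicates 1 and 2 were the lowest libraries. DMSO replicate 2, highest for Slc2a3, was lowest for Pfkl, Pfkp and Pkm. The members thus shared no library that was high throughout.

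**Figure D4:**
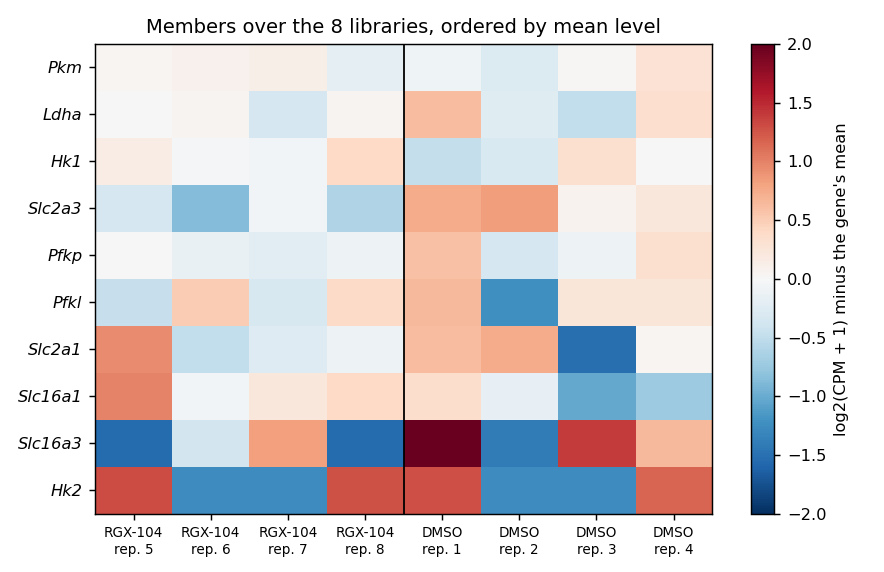
Level of each member in each library as log2(CPM + 1) minus the gene's mean over the 8 libraries, with the 4 RGX-104 libraries left of the line and the 4 DMSO libraries right of it; red is above and blue below the mean, and genes run from the highest to the lowest mean level. Slc2a3 is the member that is blue in all RGX-104 libraries and red in all DMSO libraries; Slc16a3 and Hk2 vary most because of libraries with no or few counts.

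Likeness to Slc2a3 was measured as the root mean square difference of centred log2(CPM + 1) over the 8 libraries, among 3543 other genes with a mean of 50 CPM or more. The 5 nearest were Eftud2, a GTPase of the spliceosome (0.235), Sdad1 (0.246), Cbll1, a ubiquitin ligase (0.263), Dlst, a subunit of the oxoglutarate dehydrogenase complex of the citric acid cycle (0.267), and Uimc1, a ubiquitin-binding protein of DNA repair (0.283). Eftud2 was measured at 56.8 ± 11.3 CPM in RGX-104 and at 103.6 ± 18.9 CPM in DMSO, and Uimc1 at 63.1 ± 2.67 CPM in RGX-104 and at 107 ± 15.2 CPM in DMSO (SD, n = 4 each). In both genes the groups did not overlap, while Sdad1, Cbll1 and Dlst overlapped. Of the members high enough to be ranked among the 3543, Pfkp stood at place 631 with 0.538, Ldha at 1382, Pkm at 1598, Hk1 at 2901 and Pfkl at 3395. The measure is not scaled to how much a gene varies, so a place mixes likeness with small variation. This is a description of 8 libraries that includes the difference between the groups. The 5 genes were picked for likeness to Slc2a3, so their differences between the groups are no separate result.

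The other genes of the pathway were taken from 7 lists with 79 genes, of which 51 could be tested. None of the 51 was called by edgeR, DESeq2 or limma-voom, against 0.110% of all tested genes with edgeR, 0.329% with DESeq2 and 14 of 10037 with limma-voom. Without adjustment edgeR gave a p under 0.05 for 3 of them (2 with more and 1 with less transcript in RGX-104), against 3.81% of all tested genes. Their log2 fold changes were above 0 in 29 genes and below 0 in 22, with a median of 0.07 against 0.01 for all tested genes. Only 23 of the 51 had a mean of 50 CPM or more, so moderate changes of the rest were poorly measured.

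Few counts fell on glucose transporters outside the 2 members. No library held a count for 8 of the 11 listed genes, and 3 were tested. Mtor, a kinase gene that nearly every cell expresses, also had no count in any library, so a count of 0 in this table does not show that a transcript was absent. Slc2a8, an intracellular transporter, was at 14.6 ± 5.30 CPM in RGX-104 and at 4.60 ± 5.33 CPM in DMSO, with overlapping groups (log2 fold change 1.66 ± 1.49, SE). Slc2a9, which also carries urate, was at 15.2 ± 14.1 CPM in RGX-104 and at 13.6 ± 7.53 CPM in DMSO.

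Of the other glycolytic enzymes 11 of 22 were tested and none passed. Gpi1, the isomerase after hexokinase, was at 259 ± 8.31 CPM in RGX-104 and at 237 ± 22.9 CPM in DMSO, and Aldoa, the aldolase after phosphofructokinase, at 88.4 ± 19.2 CPM in RGX-104 and at 115 ± 55.9 CPM in DMSO. Of 7 genes that set or remove the fructose bisphosphates, 5 were tested and none passed. Pfkfb3, which makes the activator of phosphofructokinase, was at 13.3 ± 6.27 CPM in RGX-104 and at 16.4 ± 11.1 CPM in DMSO, and Tigar, a phosphatase that lowers it, at 17.8 ± 16.2 CPM in RGX-104 and at 16.5 ± 7.10 CPM in DMSO.

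Of the 6 genes listed with the lactate transporters, as members of their family or as partners, 4 were tested and none passed. Emb (embigin), a chaperone of monocarboxylate transporters, was the highest at 306 ± 57.1 CPM in RGX-104 and 273 ± 22.1 CPM in DMSO, followed by the family member Slc16a6 at 98.0 ± 11.5 CPM in RGX-104 and 107 ± 33.1 CPM in DMSO. Among genes of pyruvate entry into the mitochondrion, 11 of 12 were tested and none passed. Pdk1, a kinase that restrains pyruvate dehydrogenase, was at 94.0 ± 30.6 CPM in RGX-104 and at 124 ± 24.1 CPM in DMSO, and Pdp2, a phosphatase that activates it, at 80.5 ± 9.09 CPM in RGX-104 and at 66.4 ± 10.4 CPM in DMSO.

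The pentose phosphate genes, 5 of 7 tested, held the most abundant enzyme of the lists, Taldo1 (transaldolase), at 475 ± 23.8 CPM in RGX-104 and 458 ± 56.5 CPM in DMSO. Tkt (transketolase) was at 216 ± 39.3 CPM in RGX-104 and at 162 ± 28.6 CPM in DMSO, with an unadjusted edgeR p of 0.0483 and an adjusted p of 1.00. Of 14 genes of glucose sensing and control 12 were tested and none passed. Txnip, which restrains glucose uptake and responds to glucose through Mlx factors, was at 764 ± 58.9 CPM in RGX-104 and at 637 ± 103.8 CPM in DMSO (log2 fold change 0.25 ± 0.12, SE, edgeR adjusted p = 1.00). Akt1, a kinase that promotes glucose uptake, was at 222 ± 18.8 CPM in RGX-104 and at 209 ± 50.6 CPM in DMSO.

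Hif1a was named after its values were seen, since its unadjusted edgeR p was under 0.05. The gene, which encodes a factor that drives glycolytic genes in low oxygen, was at 52.6 ± 12.6 CPM in RGX-104 and at 24.6 ± 12.5 CPM in DMSO. Its lowest RGX-104 library, at 39.3 CPM, lay just above its highest DMSO library, at 38.8 CPM (log2 fold change 1.08 ± 0.43, SE, edgeR unadjusted p = 0.0202, adjusted p = 1.00). The RGX-104 libraries lay wholly above the DMSO libraries in 1 of the 51 tested genes of the lists, against 2.20% of all tested genes.

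**Figure D5:**
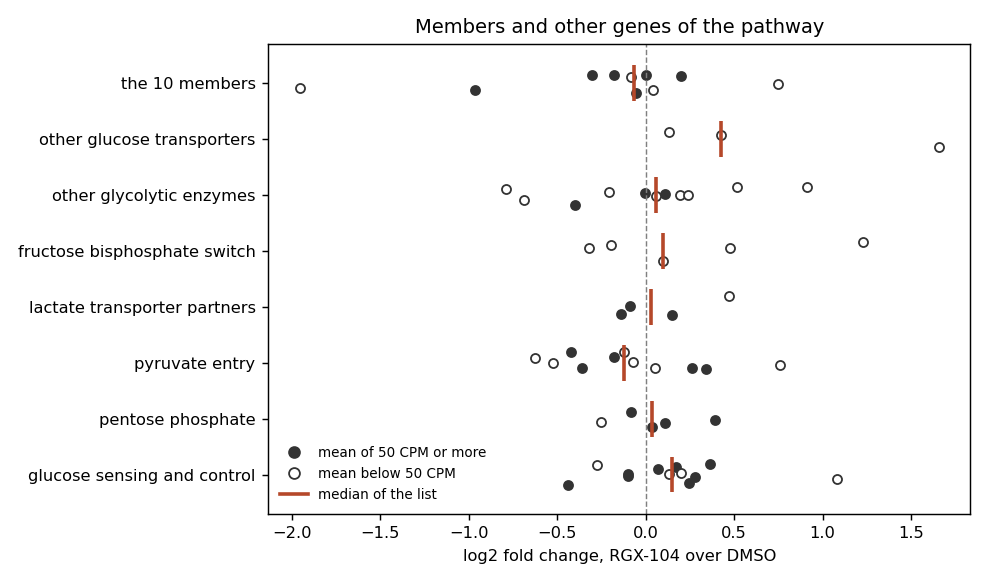
Fitted log2 fold change, RGX-104 over DMSO, of each tested gene of the 10 members and the 7 other lists; filled points have a mean of 50 CPM or more, open points a lower mean, and red lines are list medians. The lists lie on both sides of 0, and the points far from 0 are mostly open.

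The promoters of the members were compared because known hypoxia and E-box elements regulate glycolytic genes, whereas the treatment acts on LXR. RefSeq promoters on GRCm38.p6, from 250 bases before to 50 after a start site, were at hand for 9 of the members, all but Slc2a3, with 12 promoters in all. The hypoxia element core ACGTG was found on either strand in 7 of the 12 promoters (58.3%), those of Slc2a1, Hk1, Hk2, Pkm, Ldha, Slc16a1 and Slc16a3, against 19.6% of 32851 mouse promoters. The E-box CACGTG, which contains the core, was found in 2 of the 12 promoters (16.7%), those of Ldha and Slc16a1, against 7.15% of all promoters. The direct repeat of AGGTCA with 4 bases between, bound by LXR, was in none of the 12. It was in 0.0152% of all promoters, so rare that its absence from 12 says nothing about the members. A match is not a bound site, and base composition was not taken into account. The stretches below, 50 bases each, show the core at the entry and exit ends of the pathway, with ACGTG or its complement in capitals.
Slc2a1, chr4:119108687-119108736, plus strand: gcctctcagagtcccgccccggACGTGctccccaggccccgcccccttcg
Ldha, chr7:46845734-46845783, plus strand: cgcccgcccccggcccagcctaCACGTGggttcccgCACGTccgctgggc
Slc16a1, chr3:104638442-104638491, plus strand: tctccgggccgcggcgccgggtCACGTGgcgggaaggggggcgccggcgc
Slc16a3, chr11:120949018-120949067, plus strand: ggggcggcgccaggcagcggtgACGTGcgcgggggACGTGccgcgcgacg
Counted from the start site, the first motif shown lies at position -36 in Slc2a1, -48 in Ldha, -200 in Slc16a1 and -27 in Slc16a3.

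In the GENCODE M21 annotation of GRCm38 the members are protein-coding genes on 8 chromosomes. Slc2a3 lies on chromosome 6, 122727809 to 122801640, on the minus strand, and overlaps no exon of another gene. Hk2 lies on the same chromosome at 82725025 to 82774454. Slc2a1 is on chromosome 4 (119108711 to 119137983), Pkm on chromosome 9 (59656368 to 59679375), Ldha on chromosome 7 (46841475 to 46855627) and Pfkp on chromosome 13 (6579768 to 6648777). Hk1 and Pfkl are both on chromosome 10, at 62268855 to 62379908 and 77986947 to 78010083. Slc16a1 is on chromosome 3 (104638668 to 104658462) and Slc16a3 on chromosome 11 (120948480 to 120960868). Hk1 overlaps an exon of Hk1os on the opposite strand, which averaged 1.55 CPM in RGX-104 and 3.13 CPM in DMSO. Exons of Pkm overlap Gm49759 on the same strand and exons of Slc2a1 overlap Gm12868 on the opposite strand. Neither Gm49759 nor Gm12868 was used here, and reads in those overlaps may have been affected.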

How the data were processed

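The deposited table gives unnormalized whole-number counts of reads for each gene symbol in each of the 8 libraries, per the file headers. Libraries were made with a QuantSeq kit that primes at the poly(A) tail, per the labels' protocols. Per the submitters' processing notes, GRCm38 was the build and the tools included DESeq2 1.4, R 4.1.0 and STAR 2.7.8a, without stated roles. How reads were assigned to genes, with what strand setting and whether by molecular identifiers, is not given in the sources used here.

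All 8 libraries entered 1 edgeR 4.0.16 fit (R 4.3.3) with TMM normalization, filterByExpr at a minimum count of 10 and group as the sole term, and p-values were adjusted by Benjamini-Hochberg over 10037 genes. The standard error is the size of the log2 fold change over the square root of the F statistic, and intervals rest on it. CPM levels use library totals. DESeq2 1.42.0, limma-voom (limma 3.58.1), other filters and scalings and left-out libraries were alternatives; the fits were tested on simulated counts, where DESeq2 made more false calls than edgeR and limma-voom. Copies of 3' ends were sought with blastn 2.17.0. Library totals of 16196217 to 28287445 counts set the counting error, and floors of counts cover that error only. The intervals of the log2 fold changes come from the fit and include its scatter between libraries.

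The members and lists were chosen with earlier results of these data known. Named were all members, the 2 tested genes of highest mean CPM per list, any called gene, and the 5 genes nearest to Slc2a3; others are said to be named after their values were seen. Some genes of the lists and markers are counted but not reported here by name. No library number recurs between the groups and the labels name no batch, so neither was a term of the fit.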

Additional observations from a re-analysis of the deposited data

Results flagged for a closer look

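Among 60 sets of 4 libraries examined, for the members and the other genes named, 2 sets held a library that stood apart, and chance alone marks about 1 in 20. The RGX-104 replicate 7 library had 142 CPM of Ldha, while its 3 fellow RGX-104 libraries had 180 to 186 CPM. For Emb, DMSO replicate 3 was low at 240.0 CPM beside 284 to 285 CPM in the remaining DMSO libraries.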

How the results depend on the processing

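No paired analysis was possible because the groups share no library number. Slc2a3 stayed below 0 in all 16 alternatives, from -1.12 to -0.71, and DESeq2 called 1 member; edgeR's other settings and limma-voom called 0. Its smallest changes came with the genes detected as a covariate (-0.72) and with DMSO replicate 4 alone as the control (-0.71), a setting chosen after the data were seen, in which the median of all genes was 0.13. In every setting that could be run, Hk1 (0.036 to 0.35) and Slc16a1 (0.49 to 1.20) stayed above 0, and Pfkp (-0.47 to -0.13) and Slc16a3 (-3.61 to -1.37) below 0. Hk1 was lowest with the covariate and stood at 0.085 without DMSO replicate 1, and Pfkp was nearest to 0 without DMSO replicate 1. Slc2a1 turned to 0.28 with limma-voom, 0.32 with the covariate and 0.069 against DMSO replicate 4 alone, and ranged from -0.51 to 0.15 with a library left out. Hk2 turned to -0.29 with the covariate and -0.88 against DMSO replicate 4 alone, and ranged from -0.57 to 0.69. Pkm was at -0.013 with DESeq2 size factors, -0.012 with DESeq2, -0.00013 without a filter, -0.012 with a minimum of 50 CPM, -0.17 with the covariate and -0.30 against DMSO replicate 4 alone, and ranged from -0.089 to 0.12. With a library left out Pfkl ranged from -0.33 to 0.18 and Ldha from -0.35 to 0.028. The cause of these shifts was not tested. Over all genes, edgeR called 10 higher and 1 lower; DESeq2 called 20 and 13, the covariate left 6 higher, and lower calls were 3 with limma-voom, 4 without a filter, 3 with the 50 CPM minimum and 1 to 3 with a library left out (3 without DMSO replicate 4). The 50 CPM minimum dropped Slc2a1, Hk2, Slc16a1 and Slc16a3. The order of levels gave 3 neighbour pairs past the threshold, and 3 or 4 in its alternatives. In a library 3 counts correspond to 0.106 to 0.185 CPM, for counting error only. Hk2 had no count in 4 libraries and 71 to 138 counts in the other 4.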
